A study of Mus musculus with 6 samples.

Results

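The ion channel genes are the 74 genes of the array table whose symbols belong to the families of voltage-gated and other potassium channels (Kcn), voltage-gated calcium (Cacn) and sodium (Scn) channels, CLC and CLIC chloride proteins, anoctamins (Ano), TRPC, TRPM and TRPV channels, HCN channels, ionotropic glutamate receptors (Gria, Grik, Grin), GABA-A receptors (Gabr), nicotinic acetylcholine receptors (Chrn) and P2X receptors. They were chosen by symbol alone, from rows with 1 gene symbol in the array's annotation, and they make up 74 of the 9490 genes tested. The RefSeq gene table lists 241 protein-coding mouse genes with such symbols, and the others are not analysed here. Coverage was uneven: 25 of 94 Kcn genes, 11 of 26 Cacn, 3 of 14 Scn and 2 of 19 Gabr genes had a row, against 5 of 7 Clcn, 4 of 5 Clic and 5 of 7 P2rx genes.

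The cells are cancer stem-like cells grown in culture from the prostates of mice of the TRAMP model, a transgenic strain in which a viral oncogene driven by a prostate epithelial promoter produces intraepithelial neoplasia and, later, neuroendocrine tumours. The TNE group held 3 samples of cells from mice with neuroendocrine tumours, whose age the labels do not give. The TPIN group held 3 samples of cells from mice 10 to 11 weeks old with intraepithelial neoplasia. All samples carry the TRAMP transgene and were kept in serum-free medium to which EGF and FGF2 had been added, so both groups share the oncogene and the growth factors. The labels name no separate mice or cultures behind the samples of a group, so p-values reflect only the spread of these samples, some of which may be technical. Values are RMA expression on the log2 scale, so a difference of 1 is a doubling, and no detection call comes with them.

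Array medians over all rows lay between 8.82 and 9.10 in TNE and between 8.98 and 9.03 in TPIN, and arrays correlated at 0.825 to 0.917 within TNE, 0.842 to 0.905 within TPIN and 0.549 to 0.733 between the groups. The labelled cell kinds were set against marker lists. Of 9 measured neuroendocrine markers 4 were higher in TNE and none lower (list means 9.07 to 10.31 in TNE and 7.84 to 8.83 in TPIN), and of 8 neuronal markers none passed, with list means of 7.58 to 9.07 in TNE and 6.67 to 7.55 in TPIN. Of 15 fibroblast and smooth muscle markers 10 were lower in TNE, with list means of 7.69 to 8.46 in TNE and 10.90 to 11.10 in TPIN. Of 4 luminal markers 1 was higher (Fkbp5, 2.66-fold) and 1 lower (Acpp, 48.4-fold), with Krt8 and Krt18, the simple keratins of prostate epithelium, not passing. The luminal list means were 7.92 to 8.02 in TNE and 9.20 to 9.39 in TPIN. Of 4 endothelial markers 1 was higher and 1 lower, the only measured glial marker, Aldh1l1, was lower, and none of 2 basal and 3 leukocyte markers passed. In cultured samples, fewer cells of a type and less RNA per cell cannot be told apart, and the part of any of these cell types in the differences of the channel genes was not tested.

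Ion channels are membrane proteins that let selected ions cross down their gradients when voltage, a transmitter, calcium or another signal opens them. Calcium and sodium channels and excitatory receptors depolarise a cell, potassium channels return it to rest, and auxiliary subunits set how many pores reach the membrane and how fast they open. Neuroendocrine cells use voltage-gated calcium entry to release hormone from dense-core vesicles, while non-excitable epithelial and stromal cells use channels for volume control, calcium entry and secretion.

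In TNE cells 5 of the 74 ion channel genes were higher than in TPIN cells and 8 were lower, and 61 did not pass the test. The higher ones were Scn1a (a sodium channel pore), Clcn3 (an endosomal chloride/proton exchanger), Trpc1 (a cation channel subunit), Kcnab2 (a cytoplasmic potassium channel subunit) and Ano8 (an anoctamin), by 2.05-fold to 4.10-fold. The lower ones were Ano3 (another anoctamin), Gria3 (an AMPA receptor subunit), Cacnb2 and Cacna1g (calcium channel subunits), Gabre (a GABA-A receptor subunit), P2rx5 (an ATP-gated channel), Kcnab1 and Kcnd1 (both of potassium channels), by 1.97-fold to 7.38-fold. The test was limma across all 9490 genes with Benjamini-Hochberg adjustment over all of them, and a gene passed at an adjusted p under 0.05. The share of members that passed, 17.6%, was near the 20.5% of all genes (10.3% higher, 10.2% lower), so the count by itself is no result about ion channels. The counts given below for each class are to be read beside the same shares of all genes. The median difference was -0.19 over the members and -0.02 over all genes.

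**Figure D1:**
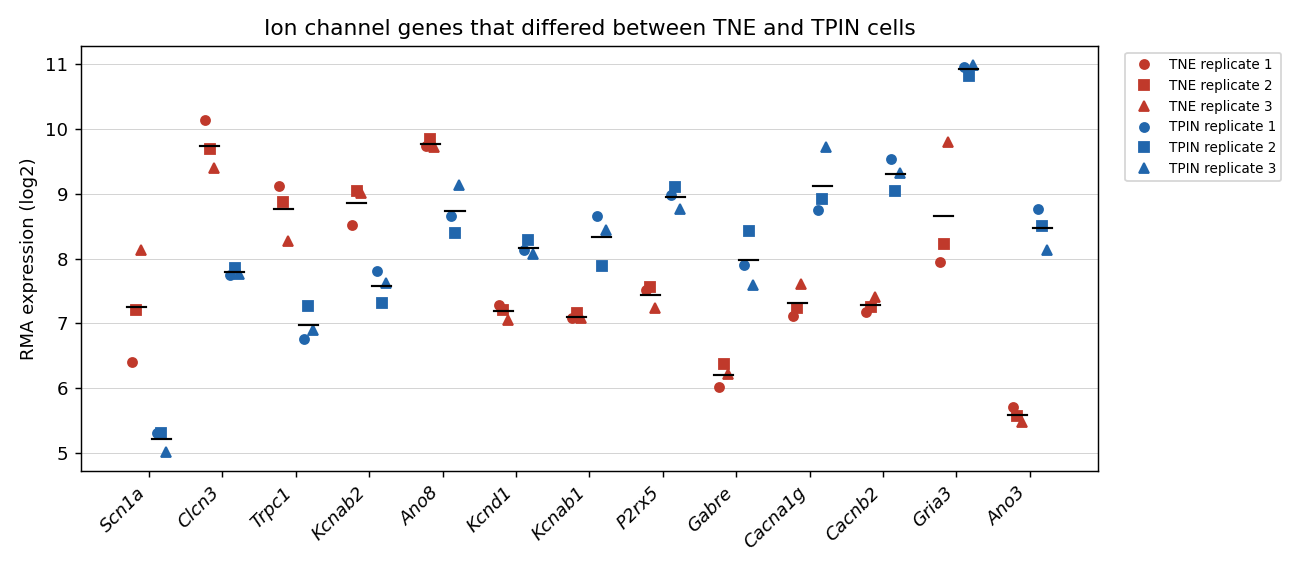
RMA expression (log2, vertical axis) of the 13 ion channel genes that passed the test, ordered from the highest to the lowest difference; red points are the 3 TNE arrays, blue points the 3 TPIN arrays, symbols mark the replicate and bars the group means. For each of the 13 genes all TNE arrays lie on one side of all TPIN arrays.

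Of the members, 27 had groups that did not overlap (36.5%), 11 higher and 16 lower in TNE, against 43.8% of all genes (23.3% higher, 20.5% lower). All 13 genes that passed were among them. The number that passed depended on single arrays: it fell to 8 when TPIN replicate 1 was left out, a fit in which 9.86% of all genes passed, and to 7 when TNE replicate 2 was left out, where 8.77% of all genes passed. Leaving out another array gave between 9 and 16, in fits where 11.7% to 27.4% of all genes passed. Without any 1 of the 6 arrays, 7 of the 13 kept their call: Ano3, Cacnb2, Cacna1g, Gabre, P2rx5, Clcn3 and Trpc1.

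The ion channel genes sat low on the arrays. Their median level over the 6 arrays was 7.69, against 9.02 for all genes, and 50 of the 74 (67.6%) lay in the dimmest 25% of the table. Of those 50, 6 passed (12.0%), against 15.9% of all genes in that range. Of the 24 brighter members 7 passed (29.2%), against 22.0% of all brighter genes. RMA narrows differences near background, so a fold given for a dim gene is a fold on the RMA scale. No member differed by as much as 3 on the log2 scale, a size reached by 287 of all genes (3.02%), and 6 members (8.11%) differed by at least 2, against 9.70% of all genes. The brightest members were the intracellular chloride channel proteins Clic4 (mean 11.20) and Clic1 (11.18) and the phospholipid scramblase Ano6 (11.11).

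**Figure D2:**
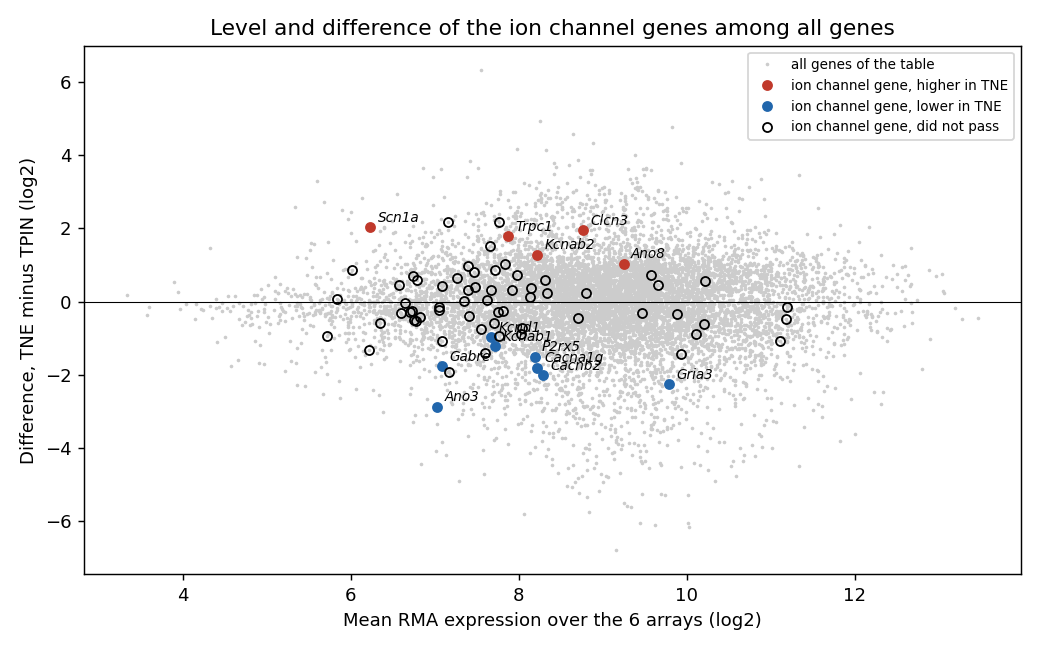
Difference between TNE and TPIN (log2, vertical axis) against the mean level over the 6 arrays (log2, horizontal axis); grey points are all 9490 genes, filled circles the ion channel genes that passed (red higher, blue lower in TNE) and open circles the 61 that did not. The members lie mostly left of the median level of all genes, 9.02, and inside the range of the grey cloud.

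Voltage-gated calcium channels, which couple depolarisation to calcium entry, had 11 measured genes, and 2 fell in TNE while none rose. Among all genes 10.2% were lower and 10.3% higher, so these counts by themselves are no result about the class. Cacnb2, a cytoplasmic beta subunit that brings the pore to the membrane, had 7.18, 7.25 and 7.40 in TNE cells, against 9.54, 9.04 and 9.32 in TPIN cells. The groups were far apart relative to their spread, and the gene was 4.06-fold lower (log2 difference -2.02, SE 0.27, limma adjusted p = 0.00327). Cacna1g, the pore of a low-voltage-activated T-type channel, had 7.11, 7.23 and 7.61 in TNE cells, against 8.75, 8.92 and 9.72 in TPIN cells. All TNE arrays lay below all TPIN arrays, and the gene was 3.51-fold lower (log2 difference -1.81, SE 0.34, limma adjusted p = 0.0107). On the same arrays the fibroblast and smooth muscle list had means of 7.69 to 8.46 in TNE and 10.90 to 11.10 in TPIN, and its part in these differences was not tested.

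The other pore genes of this class did not pass. Cacna1a and Cacna1b, the P/Q-type and N-type pores of nerve terminals and neuroendocrine cells, had 7.82 ± 1.01 and 8.35 ± 0.81 in TNE cells, against 7.51 ± 0.76 and 7.62 ± 0.47 in TPIN cells (SD, n = 3 each). Cacna1c, the L-type pore of muscle and neurons, had 8.91 ± 1.62 in TNE and 8.69 ± 0.24 in TPIN, with a 95% interval of the difference from -1.44 to 1.88. Cacna1i, a second T-type pore, had a difference of 0.01 with an interval of -0.65 to 0.67, a narrower range than that of Cacna1c. Among the auxiliary genes, Cacna2d1, the brightest of the class, had 9.68, 9.69 and 10.31 in TNE cells, against 10.43, 10.20 and 10.92 in TPIN cells, and its groups overlapped (log2 difference -0.62, limma adjusted p = 0.190). Cacng7, of a subunit family that also regulates AMPA receptors, had 9.67 ± 0.11 in TNE and 10.55 ± 1.45 in TPIN. Cacnb1, Cacnb4 and Cacna2d2 had differences of -0.29, 0.71 and 0.65.

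Sodium channels drive the upstroke of the action potential, and 1 of 3 measured genes rose in TNE. Scn1a, a pore-forming subunit of neurons, had 6.41, 7.20 and 8.14 in TNE cells, against 5.32, 5.30 and 5.02 in TPIN cells. The TNE arrays were higher, with a wider spread than in TPIN, and the gene was 4.10-fold higher (log2 difference 2.03, SE 0.44, limma adjusted p = 0.0171). Its level over the 6 arrays was among the dimmest 3.3% of genes, and the call was lost without TPIN replicate 1 (limma adjusted p = 0.0553) or TNE replicate 2 (0.0581). Scn2a, another neuronal pore, had 6.81, 6.93 and 9.91 in TNE cells, against 6.39, 7.23 and 7.11 in TPIN cells. Its difference of 0.97 (limma adjusted p = 0.384) came with 1 high TNE array, and without TNE replicate 3 it was -0.04. Scn7a, the sodium-sensing channel whose gene lies 1 gene away from Scn1a, had 4.79, 5.04 and 6.81 in TNE cells, against 4.86, 6.54 and 9.20 in TPIN cells, and the groups overlapped.

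Potassium channel genes numbered 25, of which 1 rose and 2 fell in TNE. Among the 7 voltage-gated pores only Kcnd1, a subunit of rapidly inactivating A-type channels, passed. Kcnd1 had 7.29, 7.21 and 7.06 in TNE cells, against 8.13, 8.29 and 8.07 in TPIN cells. The groups were tight and apart, and the gene was 1.97-fold lower (log2 difference -0.98, SE 0.25, limma adjusted p = 0.0318). The call was kept only without TPIN replicate 3 and was lost without any 1 of the other 5 arrays (adjusted p up to 0.111). Kcnh5, an ether-a-go-go channel of neurons, had 6.77, 7.23 and 10.74 in TNE cells, against 6.32, 6.01 and 5.89 in TPIN cells. The TNE arrays were all higher, 1 of them by far, and the difference of 2.17 (SE 0.93) had a limma adjusted p of 0.127. Kcnh2, the brightest of the voltage-gated pores, which repolarises heart muscle, had 8.37, 8.55 and 8.49 in TNE cells, against 8.97, 8.88 and 8.94 in TPIN cells, without overlap, a difference of -0.46 that did not pass (limma adjusted p = 0.198). Kcna4, Kcnq5, Kcnf1 and Kcnc2 had differences between -0.59 and 0.60.

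Of the Kv beta subunits, cytoplasmic proteins that bind voltage-gated potassium pores and change their inactivation and traffic, 1 rose and 1 fell. Kcnab2 had 8.52, 9.04 and 9.01 in TNE cells, against 7.82, 7.32 and 7.62 in TPIN cells. Every TNE array was above every TPIN array, and the gene was 2.42-fold higher (log2 difference 1.28, SE 0.29, limma adjusted p = 0.0210). Kcnab1 had 7.08, 7.16 and 7.08 in TNE cells, against 8.66, 7.89 and 8.45 in TPIN cells. All TNE arrays were below, and the gene was 2.34-fold lower (log2 difference -1.23, SE 0.29, limma adjusted p = 0.0248). Kcnab3 had 7.64, 7.86 and 8.12 in TNE cells, against 6.92, 7.13 and 7.15 in TPIN cells, a difference of 0.81 that did not pass (limma adjusted p = 0.0659). Each of the calls depended on single arrays: that of Kcnab2 was lost when TPIN replicate 2 or either of TNE replicates 2 and 3 was left out (adjusted p up to 0.0911), and that of Kcnab1 without TPIN replicate 1 or any 1 of the TNE arrays (up to 0.0892).

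Kcnmb1, the auxiliary subunit of large-conductance calcium-activated (BK) channels in smooth muscle, had 6.26, 6.06 and 6.28 in TNE cells, against 8.67, 9.05 and 6.69 in TPIN cells. TPIN replicate 3 lay close to the TNE arrays, and the 3.82-fold difference did not pass (log2 difference -1.93, SE 0.58, limma adjusted p = 0.0511). Without TPIN replicate 3 it passed (-2.66, limma adjusted p = 0.00493). The 15 fibroblast and smooth muscle markers had a mean of 11.10 on that array, against 10.90 and 10.97 on TPIN replicates 1 and 2. Among them, the smooth muscle markers Acta2, Tagln, Cnn1 and Des had their lowest TPIN value on replicate 3, and Mylk did not. Cnn1 had 8.59, 9.42 and 6.52 in TPIN replicates 1 to 3. The part of smooth muscle cells in the values of Kcnmb1 was not tested. Kcnma1, the BK pore itself, had 5.86 ± 0.62 in TNE and 5.81 ± 0.08 in TPIN (SD, n = 3 each), with a 95% interval of the difference from -0.76 to 0.88. Kcne4 was at 6.56 ± 0.40 in TNE and 7.63 ± 0.73 in TPIN without overlap (limma adjusted p = 0.101). The potassium channel interacting proteins Kcnip1 and Kcnip3 had differences of -0.54 and 0.36.

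None of the other potassium pores passed. Of the channels gated by intracellular ions, Kcnn4, an intermediate-conductance calcium-activated channel of non-excitable cells, had 8.18, 7.14 and 7.45 in TNE cells, against 8.67, 7.99 and 8.77 in TPIN cells, and the groups overlapped (log2 difference -0.89, limma adjusted p = 0.119). Kcnt2, gated by sodium, had 5.17, 5.22 and 5.37 in TNE cells, against 5.53, 7.41 and 5.64 in TPIN cells, where 1 array stood above the others (limma adjusted p = 0.201). Of 3 inward rectifiers, which hold cells near their resting voltage, Kcnj15 had 6.63, 6.93 and 7.14 in TNE cells, against 10.10, 7.81 and 6.996 in TPIN cells. The groups overlapped, and the difference of -1.40 came with a high TPIN replicate 1 (limma adjusted p = 0.185). Kcnj2 and Kcnj14 had differences of 0.87 and 0.44. Of 5 two-pore background channels, the brightest, Kcnk3, had 7.61, 8.34 and 8.28 in TNE cells, against 8.04, 7.46 and 7.78 in TPIN cells, with overlap. Kcnk6 had 6.84, 7.05 and 7.63 in TNE cells, against 8.36, 7.58 and 7.85 in TPIN cells (log2 difference -0.75, limma adjusted p = 0.139). Kcnk2, Kcnk5 and Kcnk10 differed by 0.41, -0.16 and 0.04.

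**Figure D3:**
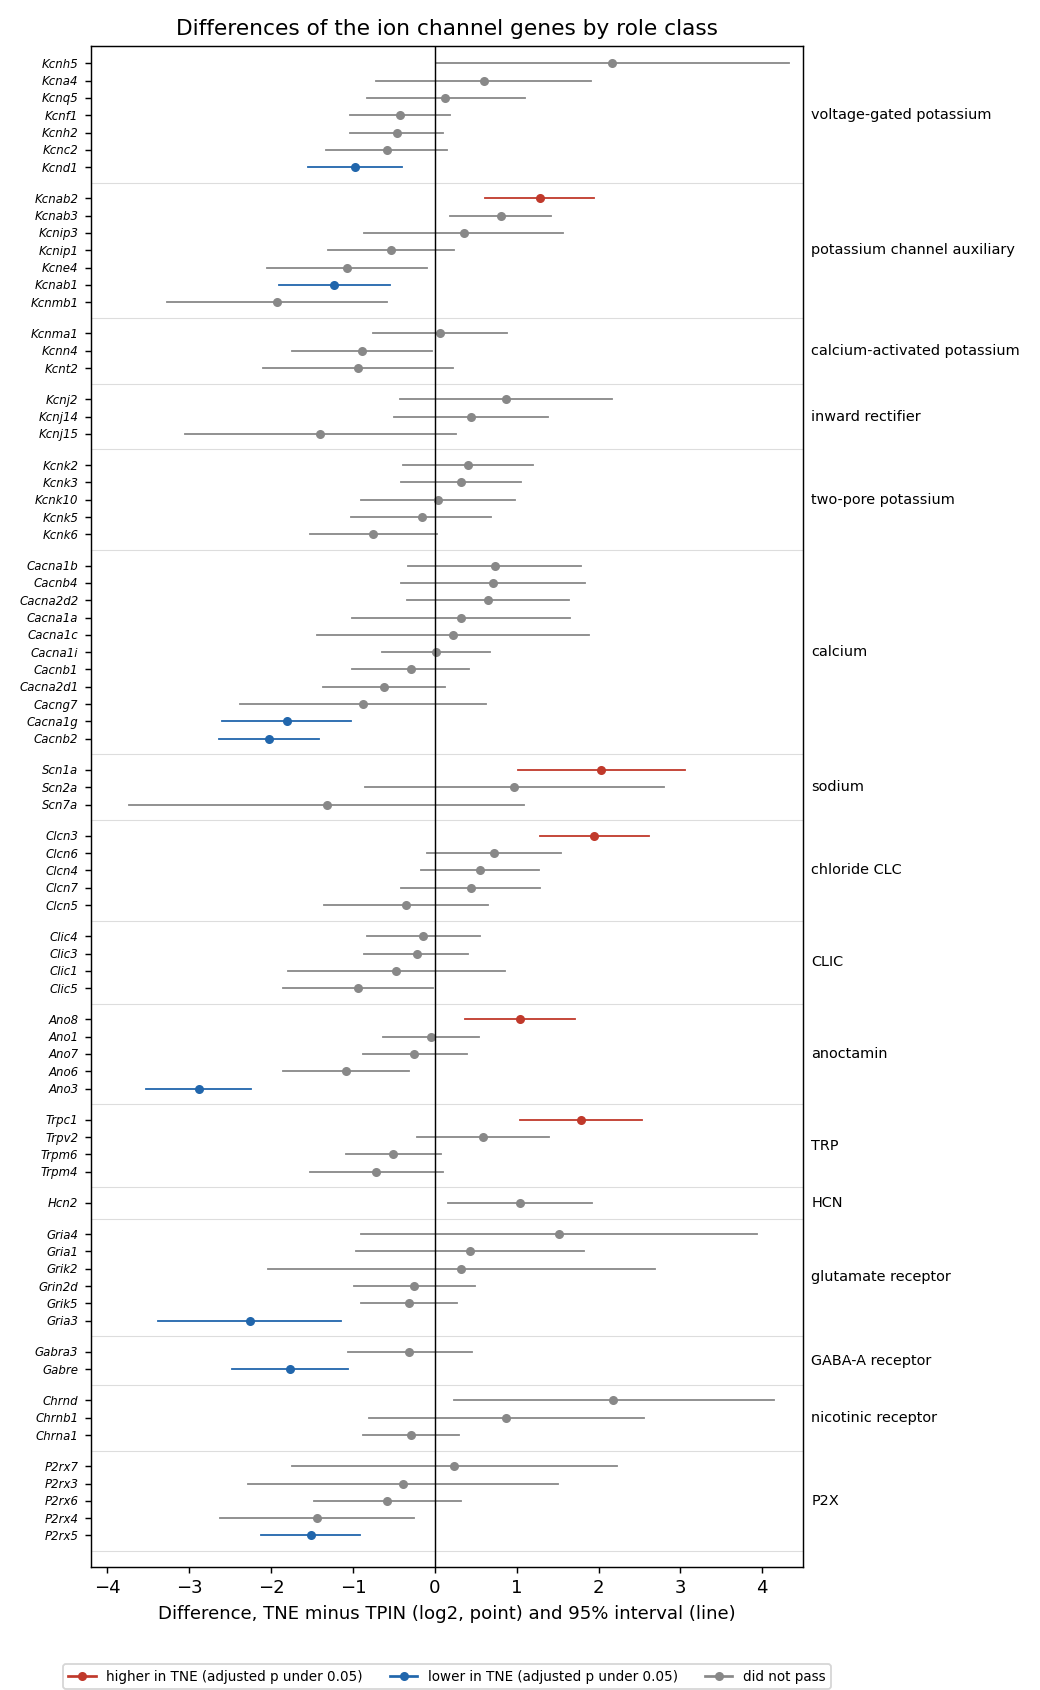
Differences of all 74 ion channel genes (TNE minus TPIN, log2, horizontal axis), as points with 95% intervals, grouped by role class and ordered within each class; red genes passed as higher in TNE, blue as lower, grey did not pass. No class holds only genes that passed, and the widest intervals belong to genes such as Gria4, Scn7a and Grik2.

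CLC proteins, most of which exchange chloride for protons in endosomes and lysosomes, had 5 measured genes, none with a mean below 8.77, and 1 of them rose in TNE. Clcn3, an endosomal and synaptic vesicle exchanger, had 10.14, 9.69 and 9.40 in TNE cells, against 7.75, 7.86 and 7.77 in TPIN cells. The TPIN arrays were nearly equal and all TNE arrays were above them, and the gene was 3.87-fold higher (log2 difference 1.95, SE 0.29, limma adjusted p = 0.00464). Clcn4, which pairs with Clcn3 in endosomes, had 10.34, 10.55 and 10.59 in TNE cells, against 10.31, 9.44 and 10.08 in TPIN cells. Its groups did not overlap but nearly touched, and the difference of 0.55 did not pass (limma adjusted p = 0.223). Clcn6 and Clcn7, of late endosomes and lysosomes, had differences of 0.72 and 0.44, and Clcn5, of endosomes, -0.35. The 4 CLIC genes all had negative differences and none passed. Clic4, at 11.40, 10.94 and 11.06 in TNE and 10.86, 11.53 and 11.42 in TPIN, differed by -0.14 (95% interval -0.83 to 0.55). The sign turned when the arrays were quantile-normalized again, to 0.02. Clic1 had 11.87, 11.41 and 9.56 in TNE cells, against 11.36, 11.71 and 11.16 in TPIN cells. Its difference of -0.47 (limma adjusted p = 0.565) came with a low TNE replicate 3. Clic5 had 7.84, 6.73 and 7.33 in TNE cells, against 8.49, 7.64 and 8.58 in TPIN cells (log2 difference -0.94, limma adjusted p = 0.122).

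Anoctamins are calcium-activated chloride channels and lipid scramblases, and of 5 genes 1 rose and 1 fell in TNE. Ano3 had 5.71, 5.57 and 5.48 in TNE cells, against 8.77, 8.51 and 8.13 in TPIN cells. This was the member with the widest gap between the groups, a 7.38-fold lower level in TNE (log2 difference -2.88, SE 0.28, limma adjusted p = 0.00113), and it ranked 335th by size of difference among the 9490 genes. Leaving out any 1 array kept the difference between -3.05 and -2.73, with adjusted p up to 0.00747. Ano8, found at contacts of the endoplasmic reticulum with the plasma membrane, had 9.75, 9.85 and 9.72 in TNE cells, against 8.66, 8.40 and 9.14 in TPIN cells. The groups did not overlap, and the gene was 2.05-fold higher (log2 difference 1.04, SE 0.29, limma adjusted p = 0.0410), a call kept only without TPIN replicate 3 and lost without any 1 of the other arrays (adjusted p up to 0.139). Ano6, the scramblase that exposes phosphatidylserine, had 11.08, 10.36 and 10.25 in TNE cells, against 11.97, 11.31 and 11.69 in TPIN cells. All TNE arrays were lower, and the difference of -1.09 (SE 0.33) did not pass (limma adjusted p = 0.0541). It passed without TNE replicate 1 (0.0364), with the dimmest 25% of genes left out (0.0482) and with array medians subtracted (0.0475). It did not pass without any 1 of the other arrays (limma adjusted p from 0.0781 to 0.171) or after another quantile normalization (0.0735). Ano1, the calcium-activated chloride channel of secretory epithelium, had 6.61 ± 0.12 in TNE and 6.66 ± 0.15 in TPIN (SD, n = 3 each), with a 95% interval of the difference from -0.63 to 0.54. Ano7, a prostate-enriched anoctamin in humans, differed by -0.25.

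TRP channels admit cations in response to lipids, heat, stretch or emptied calcium stores, and 1 of 4 rose in TNE. Trpc1, a subunit of receptor- and store-dependent cation channels, had 9.12, 8.88 and 8.28 in TNE cells, against 6.76, 7.27 and 6.89 in TPIN cells. All TNE arrays were above all TPIN arrays, and the gene was 3.45-fold higher (log2 difference 1.78, SE 0.32, limma adjusted p = 0.00925). Trpv2, the brightest of the class, had 8.51, 8.85 and 8.46 in TNE cells, against 8.29, 8.41 and 7.36 in TPIN cells, without overlap and without passing (log2 difference 0.59, limma adjusted p = 0.244). Trpm4, opened by calcium, and Trpm6, which carries magnesium, differed by -0.72 and -0.51 and did not pass. Hcn2, a pacemaker channel opened by hyperpolarisation and the only HCN gene with a row, had 7.57, 8.85 and 8.66 in TNE cells, against 7.49, 7.31 and 7.16 in TPIN cells. TNE replicate 1 lay just above the TPIN arrays, and the difference of 1.04 (limma adjusted p = 0.0856) passed without that array (1.44, 0.0229).

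The receptors opened by transmitters or ATP comprised 16 genes, of which 3 fell in TNE and none rose. With 10.2% of all genes lower and 10.3% higher, these counts by themselves are no result about the receptors. Gria3, a subunit of AMPA-type glutamate receptors and the brightest of the glutamate receptor genes, had 7.95, 8.22 and 9.81 in TNE cells, against 10.96, 10.82 and 10.98 in TPIN cells. The TPIN arrays were nearly equal and the TNE arrays were spread below them, and the gene was 4.80-fold lower (log2 difference -2.26, SE 0.48, limma adjusted p = 0.0166). The call was lost without TPIN replicate 1 (limma adjusted p = 0.0588) or TNE replicate 2 (0.0660). The other AMPA subunits, Gria1 and Gria4, had 7.29 ± 1.15 and 8.42 ± 1.70 in TNE cells, against 6.86 ± 0.67 and 6.90 ± 1.78 in TPIN cells (SD, n = 3 each), with overlap. The kainate receptor subunits Grik2 and Grik5 and the NMDA receptor subunit Grin2d had differences of 0.32, -0.32 and -0.25.

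Gabre, the epsilon subunit of GABA-A receptors, had 6.03, 6.37 and 6.22 in TNE cells, against 7.90, 8.43 and 7.60 in TPIN cells. The groups did not overlap, and the gene was 3.41-fold lower (log2 difference -1.77, SE 0.31, limma adjusted p = 0.00803). Gabra3, the alpha subunit gene 1 gene away on chromosome X, had 6.44 ± 0.20 in TNE and 6.75 ± 0.49 in TPIN (SD, n = 3 each) and did not pass. P2rx5, an ATP-gated cation channel, had 7.51, 7.56 and 7.24 in TNE cells, against 8.98, 9.11 and 8.76 in TPIN cells. The groups were tight and apart, and the gene was 2.85-fold lower (log2 difference -1.51, SE 0.26, limma adjusted p = 0.00807). P2rx4, the brightest P2X gene, had 10.38, 8.77 and 8.47 in TNE cells, against 10.76, 10.24 and 10.94 in TPIN cells. TNE replicate 1 lay among the TPIN arrays, and the difference of -1.44 (limma adjusted p = 0.0790) passed without it (-2.03, 0.0109). P2rx7, an ATP receptor known from macrophages whose gene lies next to P2rx4, had 10.42, 7.47 and 7.48 in TNE cells, against 9.38, 7.33 and 7.95 in TPIN cells, and was high on the same TNE array. P2rx3 and P2rx6 had differences of -0.39 and -0.58.

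The muscle-type nicotinic receptor was measured through its alpha, beta and delta subunits, and none of the 3 genes passed. Chrnd, the delta subunit, had 11.11, 7.87 and 7.62 in TNE cells, against 6.87, 6.57 and 6.60 in TPIN cells. All TNE arrays were above the TPIN arrays, TNE replicate 1 by far, and the difference of 2.18 (SE 0.84) had a limma adjusted p of 0.0977. Chrnb1, the beta subunit, had 9.67, 8.34 and 6.47 in TNE cells, against 7.28, 7.64 and 6.93 in TPIN cells, with overlap. Chrna1, the alpha subunit that binds acetylcholine, had 6.56 ± 0.11 in TNE and 6.85 ± 0.19 in TPIN (SD, n = 3 each), with a 95% interval of the difference from -0.88 to 0.30.

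Promoter sequences are shown for Trpc1, Scn1a and Gabre, the passing members with a single annotated start in the RefSeq promoter table (build GRCm38.p6), so that the window is not a choice among several starts. Each is the 250 bases before the start, read 5′ to 3′ on the gene's strand, which is the minus strand for all 3, with GC boxes (GGGCGG on either strand, overlaps allowed) in capitals. The windows are chr9:95750349-95750598 for Trpc1, chr2:66440838-66441087 for Scn1a and chrX:72274722-72274971 for Gabre.
Trpc1: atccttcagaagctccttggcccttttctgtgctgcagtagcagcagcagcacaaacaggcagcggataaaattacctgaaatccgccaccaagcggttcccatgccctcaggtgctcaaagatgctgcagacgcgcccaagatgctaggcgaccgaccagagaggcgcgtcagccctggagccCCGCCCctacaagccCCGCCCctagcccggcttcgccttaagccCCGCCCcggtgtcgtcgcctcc
Scn1a: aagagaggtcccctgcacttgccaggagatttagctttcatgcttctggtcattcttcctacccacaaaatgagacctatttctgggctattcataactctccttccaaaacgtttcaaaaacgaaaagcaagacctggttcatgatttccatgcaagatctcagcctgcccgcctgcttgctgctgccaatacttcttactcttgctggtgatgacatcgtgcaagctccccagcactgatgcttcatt
Gabre: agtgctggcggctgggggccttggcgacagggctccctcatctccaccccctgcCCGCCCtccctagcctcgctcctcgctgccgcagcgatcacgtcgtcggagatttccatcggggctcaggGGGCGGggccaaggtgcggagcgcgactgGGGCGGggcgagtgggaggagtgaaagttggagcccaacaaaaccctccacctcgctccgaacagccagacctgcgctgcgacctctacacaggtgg
The Trpc1 window, of a gene higher in TNE, held 3 GC boxes and 17 CpG dinucleotides at 62.8% G and C. That of Scn1a, also higher in TNE, held no GC box and 4 CpG at 46.8%. That of Gabre, lower in TNE, held 3 GC boxes and 21 CpG at 68.8%. The median window of the table had 6 CpG and 52.4% G and C, so the sequences of the 2 genes that rose lay on both sides of it. By symbol 60 members matched the promoter table, with 92 starts, 8 of the 13 passing members among them. A GC box was present in 40 of these 92 windows (43.5%), against 32.7% of 32851 windows of the table. None of the 3 windows printed held the TATA box TATAAA on either strand, present in 12.4% of all windows, or GGACAG, a part of the RE1 element bound by the neuronal gene repressor REST, present in 18.7%. These are matches of letters, not measured binding sites.

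A number of ion channel genes were set apart on 1 array only. With a gap of at least 1 on the log2 scale from both other arrays of the group, a measure chosen after the values were seen, TNE replicate 3 was high for 10 of 74 members (13.5%), against 3.86% of all genes. These were Kcnh5, Kcna4, Cacna1a, Cacna1b, Cacna1c, Cacnb4, Scn2a, Scn7a, Gria3 and Gria4, which encode channel pores, a calcium channel beta subunit (Cacnb4) and AMPA receptor subunits. Cacna1a had 7.32, 7.17 and 8.98 in TNE replicates 1 to 3, against 8.39, 7.08 and 7.05 in TPIN. Cacna1c had 7.16, 9.23 and 10.35 in TNE cells, against 8.95, 8.49 and 8.62 in TPIN cells. TNE replicate 3 was above its group for all 10, and for 8 of them it was also above all TPIN arrays. The exceptions are Scn7a and Gria3. The same array was low, by the same gap, for 4 members (5.41%), Clic1, Grik2, Chrnb1 and P2rx3, against 6.15% of all genes. Shares among genes as dim as the members were not taken. On the same array the mean level of the 9 neuroendocrine markers was 10.31, against 9.07 and 9.75 on TNE replicates 1 and 2; it was the highest TNE array for 6 of the 9 and the lowest for 3. The fibroblast and smooth muscle list also had its highest TNE mean there, at 8.46, against 7.69 and 7.78 on TNE replicates 1 and 2. TNE replicate 3 was the highest TNE array for 12 of these 15 markers and the lowest for 1. The endothelial list had 7.81 there, against 6.94 and 6.68, and the leukocyte list 8.65, against 8.03 and 6.72. The neuronal marker list was highest on TNE replicate 2 instead, at 9.07, against 7.58 and 8.23 on TNE replicates 1 and 3. The luminal and basal lists and the only glial marker were also highest on TNE replicate 2 among the TNE arrays. The part of these lists in the high values on TNE replicate 3 was not tested.

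TNE replicate 1 was high in the same sense for 5 members (6.76%), against 4.87% of all genes: Chrnd, Chrnb1, P2rx7, P2rx4 and Kcnma1. In TPIN, replicate 1 was high for 7 members (9.46%), against 2.30% of all genes, among them Kcnj15, Kcnip3, Gria4 and Grik2. In all, 21 members (28.4%) had a TNE array apart, against 17.4% of all genes, and 15 (20.3%) a TPIN array apart, against 18.2%. Of these array-specific members Gria3 was the only one with a TNE array apart that passed the test between the groups.

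**Figure D4:**
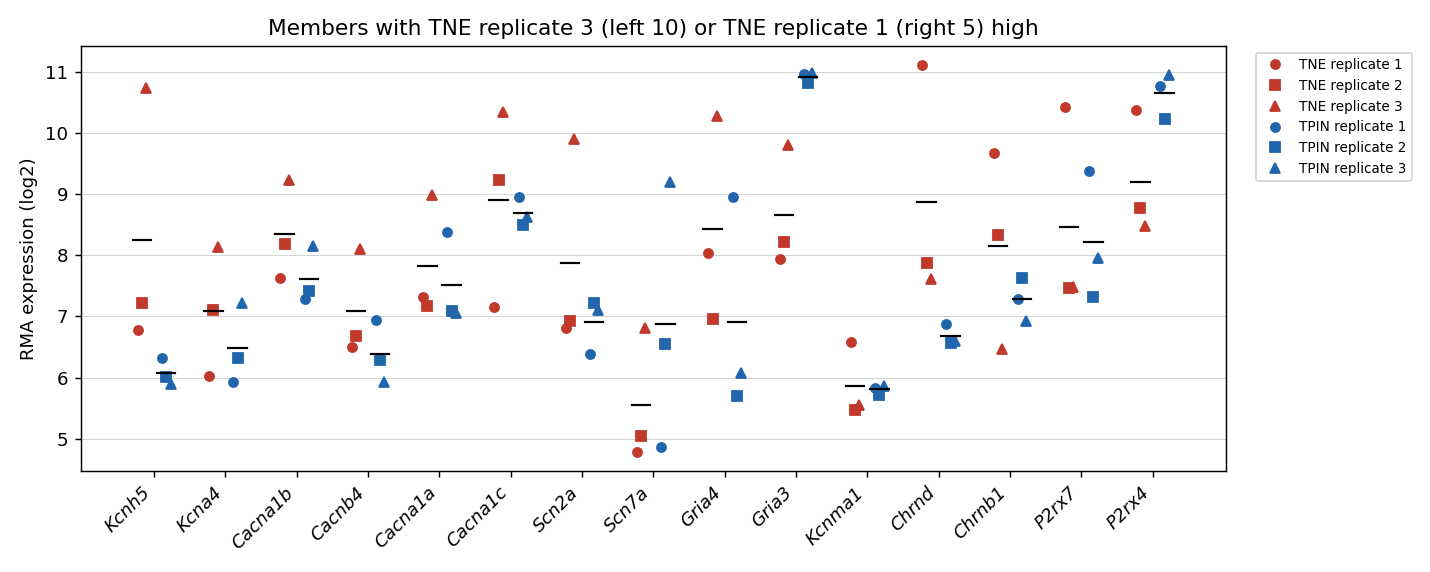
RMA expression (log2, vertical axis) of the 10 members with TNE replicate 3 at least 1 above the other TNE arrays (left) and the 5 with TNE replicate 1 so (right); red points are TNE arrays, blue points TPIN arrays, symbols mark the replicate and bars the group means. Kcnh5 at 10.74 and Chrnd at 11.11 show 1 TNE array far above the other 5 arrays.

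Of the 61 members that did not pass, 10 had a 95% interval of the difference within 1 of 0 in both directions. For these a 2-fold difference on the RMA scale lay outside the interval: Kcnma1, Kcnk10, Cacna1i, Clic3, Clic4, Ano1, Ano7, Grin2d, Grik5 and Chrna1. Apart from Clic4 and Grik5 they were dim, with mean levels of 5.84 to 7.81, against a median of 9.02 over all genes. RMA narrows differences near background, so the intervals of these dim genes do not exclude a 2-fold difference in RNA. For the other 51 of the 61 the intervals reached a 2-fold difference in at least 1 direction. With 3 arrays per group it could not be shown whether those 51 differed. At an unadjusted p under 0.05, 10 more members would count: Kcnh5, Kcnab3, Kcne4, Kcnmb1, Kcnn4, Clic5, Ano6, Hcn2, Chrnd and P2rx4.

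Genes that work beside these channels were taken from lists written by hand. Of all genes, 10.3% were higher and 10.2% lower in TNE, with a median difference of -0.02. A list of 13 genes covered channels, sensors and regulators of intracellular calcium stores, mitochondria included, and of store-operated entry. None passed, although 12 had a negative difference (11 after another quantile normalization), with a median of -0.43. Among all genes 50.8% had a negative difference. The list means were 9.36, 8.68 and 8.21 on TNE replicates 1 to 3, against 9.48, 9.07 and 9.12 in TPIN. TNE replicate 1 thus lay within the TPIN range and was the highest TNE array for 11 of the 13. Orai3, a pore of store-operated entry, had 8.43 ± 0.52 in TNE and 9.65 ± 0.43 in TPIN (SD, n = 3 each; limma adjusted p = 0.0512). Of 14 pumps and exchangers 1 rose and 1 fell, with a median of 0.06. Slc12a2, a sodium-potassium-chloride cotransporter that raises cell chloride, had 10.88, 9.88 and 10.02 in TNE cells, against 8.63, 8.04 and 8.64 in TPIN cells. It was 3.53-fold higher without overlap (limma adjusted p = 0.0128). Fxyd5, a sodium pump regulator, had 9.14, 9.16 and 9.13 in TNE cells, against 13.37, 12.20 and 10.41 in TPIN cells, and was 7.21-fold lower (limma adjusted p = 0.0230).

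Of 23 other plasma membrane channels 4 fell in TNE and none rose, with a median of -0.39. Over all genes 20.5% passed, so with so few genes these counts by themselves are no result about the lists. Piezo1, a stretch-activated channel, was 4.29-fold lower, at 9.12 ± 1.06 in TNE and 11.22 ± 0.83 in TPIN. Its groups overlapped, with TNE replicate 1 at 10.335 and TPIN replicate 3 at 10.325. Tmem63a, an osmosensitive channel, was 4.27-fold lower, Best1, a calcium-activated chloride channel, 2.47-fold, and Lrrc8a, the required subunit of volume-regulated anion channels, 2.21-fold, with limma adjusted p between 0.0332 and 0.0458 for the 4. Of 5 gap junction and pannexin genes 2 fell. Gja1, the main connexin of stromal cells, had 8.10, 6.54 and 7.77 in TNE cells, against 12.65, 11.85 and 11.17 in TPIN cells, and was 21.4-fold lower (limma adjusted p = 0.00221). Gjc1, a second connexin, was 2.81-fold lower (limma adjusted p = 0.0371). Of 22 genes that anchor or regulate channels 1 fell, Nlgn2, an adhesion protein of inhibitory synapses, 2.46-fold (limma adjusted p = 0.0318), and none rose. Of the 9 genes named from these lists as passing, Slc12a2 and Gja1 kept their calls without any 1 array, and each of the others lost its call without any 1 of 4 or 5 arrays (limma adjusted p up to 0.147). The fibroblast and smooth muscle list was lower in TNE on these arrays as given above, and its part in these differences was not tested.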

How the data were processed

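RNA of 6 cultured samples was measured on single-colour oligonucleotide arrays. Per the submitters' processing notes, the deposited values are RMA expression on the log2 scale; the RMA version, its software and the rule that chose the 10361 deposited rows go unstated in the sources used here. Groups came from sample titles; the description field gives intraepithelial neoplasia for every sample, TNE ones included. Replicates were numbered in accession order, and the codes in the titles are unexplained, so no batch could be tested. No pair of arrays shared more than 0.106% of its values.

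Rows with 1 symbol gave 9490 genes (the row with the highest mean where a gene had several; no ion channel gene did). TNE minus TPIN was fitted with limma 3.58.1 in R 4.3.3 and adjusted by Benjamini-Hochberg over all genes. In 20 simulations of 9490 genes with 200 changed, it recovered 7.00%, 58.6%, 79.7% and 90.8% of changes of 1, 2, 3 and 4 on the log2 scale, and 5.23% of calls were false. In the data 1941 genes passed, and the adjustment depends on that number, so the recovered shares need not hold for them. Alternatives left out each array or dim genes, renormalized arrays, changed the moderation or averaged rows. Values on every array were given for passing members and, in each class, the brightest and the most different member. Those of Kcnab3, Scn7a, Chrnb1, P2rx7, Cacna1a, Cacna1c and Clic1 were added after their values were seen and are not in the tally of alternatives. Members and lists were chosen with earlier results of these data known.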

Additional observations from a re-analysis of the deposited data

How the results depend on the processing

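The counts of 5 ion channel genes that rose and 8 that fell became 3 and 5 when the dimmest 25% of genes were left out, a step that removed 50 of the 74 members from the test; 7 of these 8 were among the 13, and the other was Ano6. Leaving out 1 array at a time gave 2 to 6 genes that rose and 5 to 10 that fell, with members' median differences of -0.25 to -0.08. The median was -0.05 after another quantile normalization, and 10 genes fell with array medians subtracted. Trend and robust moderation and averaging the rows of a gene left the counts at 5 and 8. Of 324 values of the 31 genes taken by the naming rule, 294 kept their direction and their side of the threshold, 21 lost a call and 7 gained one. The 31 include genes that did not pass with all 6 arrays, for which staying short of the threshold counts as kept. All 21 losses came from leaving out 1 array, and they fell on Kcnd1, Ano8, Kcnab1, Kcnab2, Scn1a and Gria3. The 2 reversals were Clic4 (0.02 after another quantile normalization) and Scn2a (-0.04 to 1.51 without 1 array, lowest without TNE replicate 3), neither past the threshold; the cause was not tested. No paired analysis was possible because the labels give no replicate numbers. Without detection calls, signal over background is unknown, and it limits the dim members most.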
